A study of Mus musculus with 2 samples.

Results

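The genes described here are 10 members of the T cell costimulation system, picked by symbol from the 32285 genes counted: the lymphocyte receptors and ligands Tnfrsf4 (OX40), Tnfrsf9 (4-1BB), Tnfrsf18 (GITR), Icos, Cd28 and Cd40lg, and the antigen-presenting cell members Cd80, Cd86, Cd40 and Tnfsf9. All 10 were found. They were followed across the CD45+ cells of mouse liver in a diet model of steatohepatitis. Male C57Bl6/J mice were lethally irradiated, received marrow from Trem2-/- or from Trem2+/+ littermate donors, recovered for 6 weeks and then ate a methionine- and choline-deficient (MCD) diet for 4 weeks. Both groups therefore share the irradiation and the diet, radioresistant host cells keep their own genotype, and no mice on a normal diet are among the samples. Live cells (7AAD-, a dye that enters dead cells) carrying CD45 were sorted, cells of 4 mice were pooled in equal parts for each group, and each pool gave 1 droplet library read from the 5' end of transcripts. With 1 library per group no difference has a replicate check and none was tested: intervals are 95% intervals for counting error alone.

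A T cell needs a second signal beside antigen. CD28 gives that signal to resting T cells when it binds CD80 or CD86, and the related receptor ICOS acts later on activated cells. OX40, 4-1BB and GITR belong to the tumour necrosis factor receptor family, signal through TRAF adaptors and NF-kB, and are induced by activation, while regulatory T cells carry several of them at rest. CD40 ligand on helper T cells acts in the other direction, binding CD40 on dendritic cells, macrophages and B cells and inducing cytokines and further costimulatory ligands, a step known as licensing.

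The receptor genes lie in groups. In mm10, Tnfrsf4 (ENSMUSG00000029075) is at chr4:156013843-156016612 and Tnfrsf18 (ENSMUSG00000041954) at chr4:156026164-156028895, both on the forward strand with 9551 bases between them, and Tnfrsf9 (ENSMUSG00000028965) is on the same chromosome at chr4:150914562-150946102. Cd28 (ENSMUSG00000026012, chr1:60716800-60773359) and Icos (ENSMUSG00000026009, chr1:60977927-61000320) are also neighbours, with 204567 bases between them. Cd40lg (ENSMUSG00000031132) is at chrX:57212143-57224042. Of the antigen-presenting cell members, Cd80 (ENSMUSG00000075122, chr16:38455561-38496335) and Cd86 (ENSMUSG00000022901, chr16:36603869-36666081, reverse strand) share a chromosome, Cd40 (ENSMUSG00000017652) is at chr2:165055627-165072948 and Tnfsf9 (ENSMUSG00000035678) at chr17:57105325-57107757.

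RefSeq (GRCm38.p6) promoter windows, each of 300 bases from 250 before to 50 after a start site, matched 4 of the 10 genes: Tnfrsf4, Tnfrsf9 with 2 starts, Tnfrsf18 and Cd80. The windows of Tnfrsf4, Tnfrsf18 and the downstream Tnfrsf9 start are shown because these 3 receptors were all high in the regulatory T cell cluster described below. They are forward-strand sequences at chr4:156013445-156013744, chr4:156026072-156026371 and chr4:150927749-150928048. Capitals mark matches to an NF-kB motif (GGG, any 2 bases, then TTTCC) and an AP-1 motif, TGANTCA, where N is any base, searched on both strands.
Tnfrsf4: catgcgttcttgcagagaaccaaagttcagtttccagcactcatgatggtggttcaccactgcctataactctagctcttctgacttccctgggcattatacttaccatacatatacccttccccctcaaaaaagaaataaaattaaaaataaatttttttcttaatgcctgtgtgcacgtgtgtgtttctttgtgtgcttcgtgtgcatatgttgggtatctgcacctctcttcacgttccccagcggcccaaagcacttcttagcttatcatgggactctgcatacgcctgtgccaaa
Tnfrsf18: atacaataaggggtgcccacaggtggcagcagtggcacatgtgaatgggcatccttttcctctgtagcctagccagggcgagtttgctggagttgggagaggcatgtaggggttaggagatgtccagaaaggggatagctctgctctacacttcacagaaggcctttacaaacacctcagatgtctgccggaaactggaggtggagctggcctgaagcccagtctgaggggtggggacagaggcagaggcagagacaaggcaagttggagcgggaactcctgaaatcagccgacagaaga
Tnfrsf9, downstream start: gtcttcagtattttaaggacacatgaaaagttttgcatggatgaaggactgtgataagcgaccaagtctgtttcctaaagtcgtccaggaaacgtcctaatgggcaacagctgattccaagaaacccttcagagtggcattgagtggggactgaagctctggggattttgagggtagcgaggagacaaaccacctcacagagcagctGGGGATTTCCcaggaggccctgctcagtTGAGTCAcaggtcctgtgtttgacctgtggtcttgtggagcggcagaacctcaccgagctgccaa
The downstream Tnfrsf9 window held both motifs, GGGGATTTCC at position -43 and TGAGTCA at position -15 from the start site, which do not overlap. Of all 32851 promoter windows, 1.63% held the NF-kB motif and 7.81% the AP-1 motif. The window of the upstream Tnfrsf9 start held neither, and the Cd80 window held 1 AP-1 match, TGATTCA at position -42. The Tnfrsf4 and Tnfrsf18 windows held neither set of letters, which says nothing about either factor outside these windows.

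The Trem2-/- library held 6362 barcodes and 25288032 transcript counts (UMIs, each molecule counted a single time), and the Trem2+/+ library 7012 barcodes and 27238586 UMIs. Filters left 5974 and 6596 cells, whose median depths were 2931.5 and 2492 UMIs. Of their barcode sequences, 53 occurred in both. Levels below are CPM, a gene's UMIs scaled to a common class total (counts per 10 to the power 6). In each pair of values the Trem2-/- library comes first, and log2 ratios are Trem2-/- over Trem2+/+. A ratio is given where a class has at least 50 cells in each library and the gene at least 20 UMIs over both. Trem2 was at 6.19 CPM against 204.1 CPM over all kept cells, in the direction of the labels. Cells were clustered without the 10 genes and named "-like" from marker genes; clusters without a clear name are given by number. Endothelial-like clusters made up 16.09% and 10.14% of kept cells in spite of the CD45 sort, and their Ptprc, the gene of CD45, was at 59.0 and 83.9 CPM against 648.6 and 654.9 CPM in B-like cells.

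The genes divided between cell classes by role in both libraries. The 6 lymphocyte members had most of their UMIs in T cell clusters, natural killer (NK)-like and type 1 innate lymphoid (ILC1)-like cells, except Tnfrsf4 in the Trem2+/+ library, of which T cell clusters held 46.52% and the mature dendritic cell (DC)-like cluster 38.61%. Cd80, Cd86, Cd40 and Tnfsf9 had most of theirs in myeloid cells. The mature DC-like cluster carried Tnfrsf4, Tnfrsf9 and Tnfrsf18 beside all 4 antigen-presenting cell members. This cluster is marked by Fscn1 and Ccr7, the genes of an actin-bundling protein and of the receptor that leads dendritic cells to lymph nodes. Fscn1 stood at 3216 and 3109 CPM and Ccr7 at 3654 and 3456 CPM in it. The plot of all 10 genes by class shows the same division in each library.

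**Figure D1:**
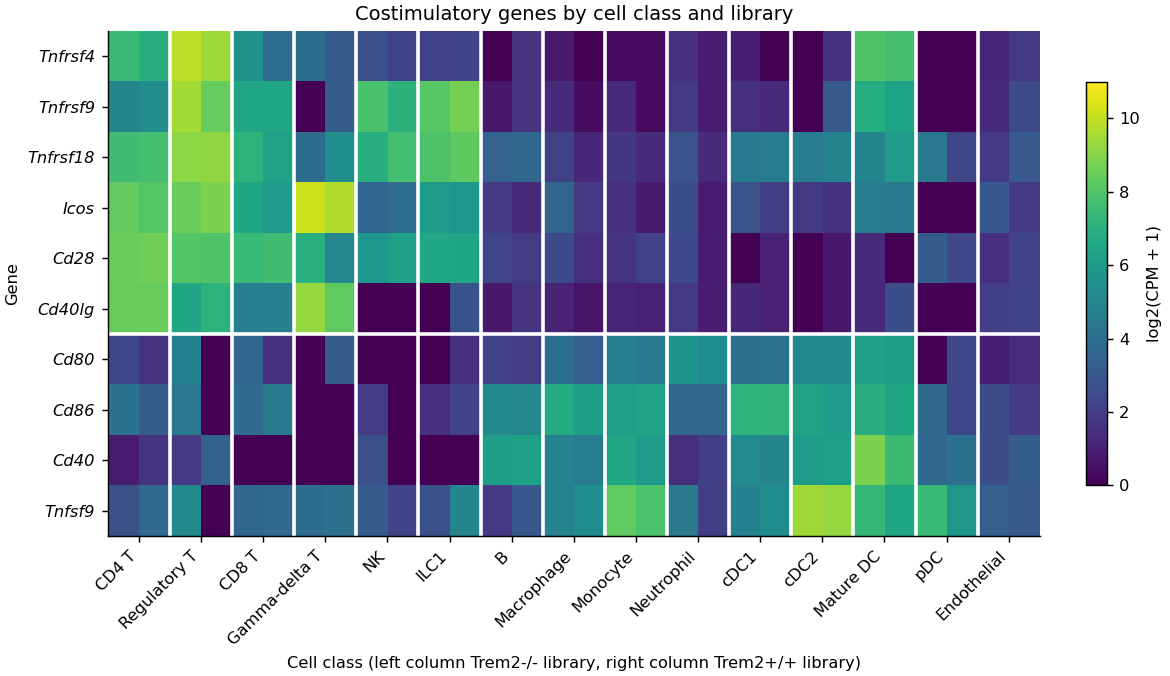
Levels of the 10 genes, as log2(CPM + 1) by colour, in 15 cell classes (columns, Trem2-/- library on the left and Trem2+/+ library on the right of each pair). The 6 lymphocyte members fill the upper left and the 4 antigen-presenting cell members the lower right, and the mature DC column is bright in both blocks.

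Over all kept cells, each of the 6 lymphocyte members was at a higher level in the Trem2-/- library, and the difference was smaller or gone when both libraries were given the same cluster shares. Tnfrsf4 stood at 38.68 CPM and 11.78 CPM (log2 ratio 1.72, 1.53 to 1.90). The ratio was 1.20 (1.03 to 1.37) for Cd40lg, 1.19 (1.04 to 1.34) for Icos, 0.90 (0.76 to 1.04) for Tnfrsf9, 0.76 (0.64 to 0.89) for Cd28 and 0.69 (0.57 to 0.82) for Tnfrsf18. All 6 were past the 1.5-fold size used here to count genes, as were 11.8% of the 14634 genes measured over the same cells, while 4.79% were lower by that size. T cell clusters together held 1697 (28.41%, exact binomial interval 27.27 to 29.57) and 1045 (15.84%, 14.97 to 16.75) of the kept cells.

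When both libraries were given the cluster shares of the Trem2+/+ library, Cd28 came to 0.05, Tnfrsf18 to -0.01, Tnfrsf9 to 0.09 and Cd40lg to 0.14 on the log2 scale. Tnfrsf4 kept 0.63 and Icos 0.49 under that weighting, a calculation chosen after the data were seen. The antigen-presenting cell members differed little before weighting, with log2 ratios of 0.31 (0.18 to 0.44) for Cd40, 0.25 (0.04 to 0.45) for Cd80, 0.04 (-0.04 to 0.12) for Tnfsf9 and -0.07 (-0.17 to 0.04) for Cd86. Weighting moved these to 0.37, 0.41, 0.26 and 0.22. Macrophage-like cells were 8.09% (7.41 to 8.81) and 19.92% (18.96 to 20.91) of kept cells, which stands beside the Cd86 value, since that class held more Cd86 UMIs than any other over both libraries.

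**Figure D2:**
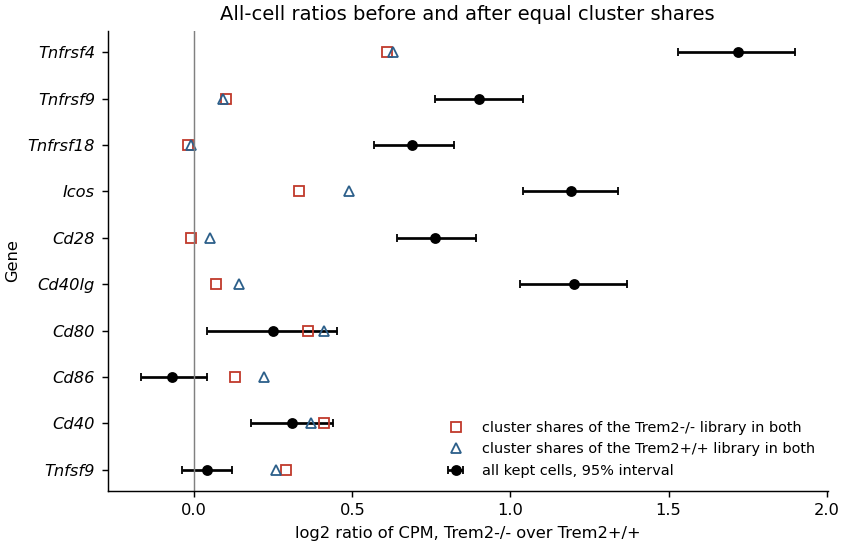
Log2 ratio of CPM (Trem2-/- over Trem2+/+) for each gene over all kept cells (black, with 95% counting intervals) and after giving both libraries the same cluster shares (open symbols). The 6 lymphocyte members move towards 0 with equal shares, Tnfrsf4 from 1.72 to 0.63 and Tnfrsf18 from 0.69 to -0.01, and the 4 antigen-presenting cell members do not.

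Tnfrsf4 and Tnfrsf18 were at their highest named-class level in the regulatory T-like cluster in both libraries, and Tnfrsf9 in the Trem2-/- library; in the Trem2+/+ library Tnfrsf9 was higher in ILC1-like cells, with overlapping intervals. The cluster expressed Foxp3, the defining factor of regulatory T cells, at 307.6 and 397.7 CPM. It held 98 cells in the Trem2-/- library and 33 in the Trem2+/+ library, under the 50 set for a ratio, so its levels are given side by side. Tnfrsf4, the receptor for OX40 ligand, was at 960.2 CPM (866.6 to 1061) and 659.7 CPM (512.2 to 836.3). Tnfrsf9 was at 700.2 CPM (620.6 to 787.2) and 339.5 CPM (236.5 to 472.2). The intervals of these 2 genes did not overlap between libraries.

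Tnfrsf18 in the same cluster was at 552.6 CPM (482.2 to 630.5) and 572.3 CPM (435.7 to 738.3), and Icos at 360.1 CPM (303.7 to 423.9) and 455.9 CPM (335 to 606.3). Both pairs of intervals overlapped. Cells chosen instead by a Foxp3 UMI together with Cd3e, 59 and 26 of them, gave Tnfrsf4 at 769.1 and 432.1 CPM, Tnfrsf9 at 576.8 and 274.4 CPM and Tnfrsf18 at 519.6 and 411.5 CPM. Icos was at 330 and 322.4 CPM in them. Cd28 was at 275.4 CPM (225.5 to 333.1) and 144 CPM (89.16 to 220.2), without overlap. The cluster held 105 and 26 Cd28 UMIs, and its Cd28 was at 252.2 and 235.1 CPM without the richest cell of each library. The Tnfrsf9 level of the Trem2+/+ cluster rested on 35 UMIs, 12 of them in 1 cell. Median depth also differed in this cluster, with 3484.5 UMIs per cell against 2242, and a part of depth in these levels was not tested.

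Regulatory T-like cells carried several of the 6 lymphocyte members at a time. At least 3 were detected in 62 of 98 cells (63.27%) and 18 of 33 (54.55%), without correction for depth. Tnfrsf4 and Tnfrsf18, the chromosomal neighbours, were detected together in 52 of 98 and 16 of 33 cells. At least 2 were detected in 80 of 98 cells (81.63%) and 24 of 33 (72.73%). After thinning each cell to 1000 UMIs, 2 or more of the 6 genes were seen in 59 of 79 and 18 of 30 cells deep enough to thin.

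Over both libraries, CD4 T-like cells held more UMIs of Cd28, Icos, Cd40lg and Tnfrsf18 than any other named class, and none of the 6 lymphocyte members reached 1.5-fold between the libraries there. The class had 344 and 147 cells and joined a cluster led by Trbv15, Ramp3 and Cd4 with a smaller one led by Il10, Penk and Maf. Cd40lg, the ligand that helper T cells use to license dendritic cells, was at 351.7 CPM (319.4 to 386.3) and 350.4 CPM (299 to 408.1) (log2 ratio 0.01, -0.26 to 0.27). Cd28 was at 353.3 and 388.6 CPM, with -0.14 (-0.39 to 0.12), and Icos at 325.1 and 276.1 CPM, with 0.24 (-0.05 to 0.53). Tnfrsf18 gave -0.11 (-0.45 to 0.24) and Tnfrsf9, at 32.26 and 42.47 CPM, gave -0.40 (-1.21 to 0.46).

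Tnfrsf4 had the only interval above 0 among these 6 in CD4 T-like cells, at 179.9 CPM (157 to 205.1) against 121 CPM (91.7 to 156.8). Its log2 ratio was 0.57 (0.15 to 1.02), just under the 1.5-fold size, and of the 7278 genes measured in the class 11.2% were past it upward and 9.38% downward. Of the 7 members with enough UMIs in CD4 T-like cells 1 was past the fold, Cd86, higher on 20 and 4 UMIs. Its interval included 0 (log2 ratio 0.93, -0.65 to 2.93). The 2 clusters of the class differed in level in both libraries: Tnfrsf4 was at 316.8 and 209.7 CPM in the Il10-led cluster and at 135 and 89.4 CPM in the Trbv15-led one. Cd40lg had the opposite order, at 163.3 and 72.6 CPM in the Il10-led cluster and 413.5 and 449.6 CPM in the other. The 2 clusters took nearly equal shares of the class in both libraries, 72.97% and 72.11% for the Trbv15-led one.

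Cells chosen by single genes (Cd3e and Cd4 UMIs with no Cd8a) moved some of these ratios. Cd40lg then gave 0.40 and Cd28 0.21, and Tnfrsf9 gave 0.78; cells with Foxp3 were not left out of this choice. At least 3 of the 6 genes were detected in 179 of 344 CD4 T-like cells (52.03%) and 55 of 147 (37.41%). At least 2 were detected in 78.78% and 69.39%, and after thinning to 1000 UMIs in 30.37% and 27.82%. Icos and Cd40lg were detected together in 109 of 344 and 32 of 147 cells.

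CD8 T-like cells of the Trem2-/- library had higher levels of Tnfrsf4 and Tnfrsf18, with ratio intervals above 0, but both values varied with the processing. The class had 319 and 267 cells, from clusters led by Gzmk and Havcr2, by Cxcl13 and cell cycle genes, and by interferon-induced genes. Tnfrsf18 was at 137.1 CPM (116.8 to 159.9) and 80.43 CPM (63.57 to 100.4) (log2 ratio 0.77, 0.37 to 1.18). It was detected in 31.66% (26.59 to 37.08) and 23.22% (18.29 to 28.76) of cells, or 12.62% and 9.77% after thinning. In B-like cells, which serve as background for this gene, the share was 2.09% and 2.18% at median depths of 1983.5 and 1733 UMIs against 3220 and 3181. Tnfrsf4 was at 49.07 CPM (37.26 to 63.44) and 14.44 CPM (7.89 to 24.22) (log2 ratio 1.77, 0.91 to 2.72).

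The Tnfrsf4 difference in CD8 T-like cells lay in few cells. It rested on 58 UMIs in 18 cells and 14 UMIs in 9 cells, with 15 UMIs in a single cell of the Trem2-/- library, and with each cell weighted equally the ratio came to 0.38. Without the richest cell of each library it was 1.70. Beside it, the 9 regulatory T markers summed to 435.7 and 298 CPM in this class, with 7 of 9 detected in both libraries. Lrrc32 and Gpr83 were at 0. Ctla4, whose levels in this class are given further below, made up most of the sum in both libraries. The part of these markers in the result was not tested. Of 8 members measured in CD8 T-like cells 2 were at least 1.5-fold higher and 1 lower, where 12.9% and 5.03% of all genes were. The lower one was Cd86 at 13.54 and 21.65 CPM on 16 and 21 UMIs, with -0.68 (-1.71 to 0.33), an interval that included 0. Cd28 was at 171.7 and 195.9 CPM, with -0.19 (-0.48 to 0.10).

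Tnfrsf9 was nearly level over the class, at 93.07 and 93.83 CPM (log2 ratio -0.01, -0.43 to 0.41), while its clusters had opposite orders. In cluster L2 it was at 77.15 and 50.1 CPM, with 0.62 (-0.11 to 1.38), and in cluster L9 at 109.2 and 172 CPM, with -0.66 (-1.19 to -0.12). Cells chosen by single genes (Cd3e and Cd8a UMIs with no Cd4), 680 and 440 of them, had Tnfrsf9 at 138.7 and 80.01 CPM, with intervals of 125.5 to 152.8 and 68.33 to 93.11. Their log2 ratio was 0.79.

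The Tnfrsf18 ratio of CD8 T-like cells came to 0.10 with all deposited barcodes and 0.20 at the higher clustering resolution, and was past 1.5-fold in 7 of 12 alternatives. Some Cd8-bearing cells stayed unnamed, and they carried Tnfrsf9 unevenly. A cluster led by Tcrg-C2 and Gzma, L5, had 297.6 and 320.8 CPM of Tnfrsf9 and made up 169 cells in the Trem2-/- library and 22 in the Trem2+/+ library. A cluster led by Dapl1 and Nsg2, L7, had 25.56 and 30.45 CPM in 116 and 187 cells. Within each of these clusters the Tnfrsf9 level was close between the libraries, and between the clusters it differed in both.

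Over all T cell clusters together, a grouping made after the data were seen, Tnfrsf4 gave 1.5 (1.24 to 1.77) and Tnfrsf9 0.81 (0.60 to 1.02), against 10.0% of genes higher and 2.97% lower by 1.5-fold. Tnfrsf18 gave 0.53 (0.36 to 0.71), Cd40lg 0.48 (0.30 to 0.66), Icos 0.43 (0.26 to 0.61) and Cd28 0.02 (-0.12 to 0.16). Ctla4, which competes with CD28 for CD80 and CD86, was at 378.2 and 211.6 CPM over the same cells. Of 13 early T cell activation genes 7 were at least 1.5-fold higher and 0 lower, with a median log2 ratio of 0.60 where the median over all genes was 0.11. Among them were Ifng at 308.9 and 177.6 CPM and Nr4a2, an early gene of receptor signalling, at 781.3 and 464.9 CPM. Within CD8 T-like cells 0 of the 12 measured genes of that list were past the fold in either direction, and within CD4 T-like cells 1 was higher and 1 lower. Cluster L4, an unnamed part of the grouping with 253 and 84 cells, had Cd40lg at 213.4 and 98.18 CPM (log2 ratio 1.12, 0.52 to 1.78). Icos gave 1.52 (0.19 to 3.22) there on 43 and 5 UMIs, while Tnfrsf9, Tnfrsf18 and Cd28 had intervals that included 0. In the unnamed clusters L1 and L6 Cd40lg gave -0.02 (-0.58 to 0.56) and 0.12 (-0.53 to 0.78).

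Gamma-delta T-like cells had the highest Icos level of any named class in both libraries, and the highest Cd40lg level in the Trem2-/- library, though with 23 and 39 cells they give no ratio. The cluster expressed Il17a, the gene of the cytokine interleukin-17A, at 1256 and 503.6 CPM. Several gamma-delta receptor genes were low or uneven, with Trdc at 27.61 and 8.26 CPM and Tcrg-C1 at 248.5 and 74.3 CPM. Trdv4 was at 276.1 and 82.55 CPM. Trgv2, at 262.3 and 239.4 CPM, and Tcrg-C2, at 55.22 and 57.79 CPM, were nearly level. The 9 markers of the CD4 T list, with Cd4 and Trac among them, were all detected in the cluster in both libraries. They summed to 2029 and 1882 CPM, against 3142 and 2584 CPM in CD4 T-like cells and 2424 and 2005 CPM in CD8 T-like cells. A part of the makeup of the cluster in the levels below was not tested. Icos was at 1146 CPM (912.6 to 1420) and 825.5 CPM (671.7 to 1004), with overlapping intervals. Cd40lg was at 607.4 CPM (441.3 to 815.4) and 313.7 CPM (222 to 430.6), whose intervals did not overlap. These levels rested on 44 UMIs in 15 cells and 38 UMIs in 18 cells. Without the richest cell of each library they were 533 and 289.2 CPM, for which no intervals were made. Tnfrsf4, Tnfrsf9 and Tnfrsf18 had 0 to 5 UMIs each in this class.

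**Figure D3:**
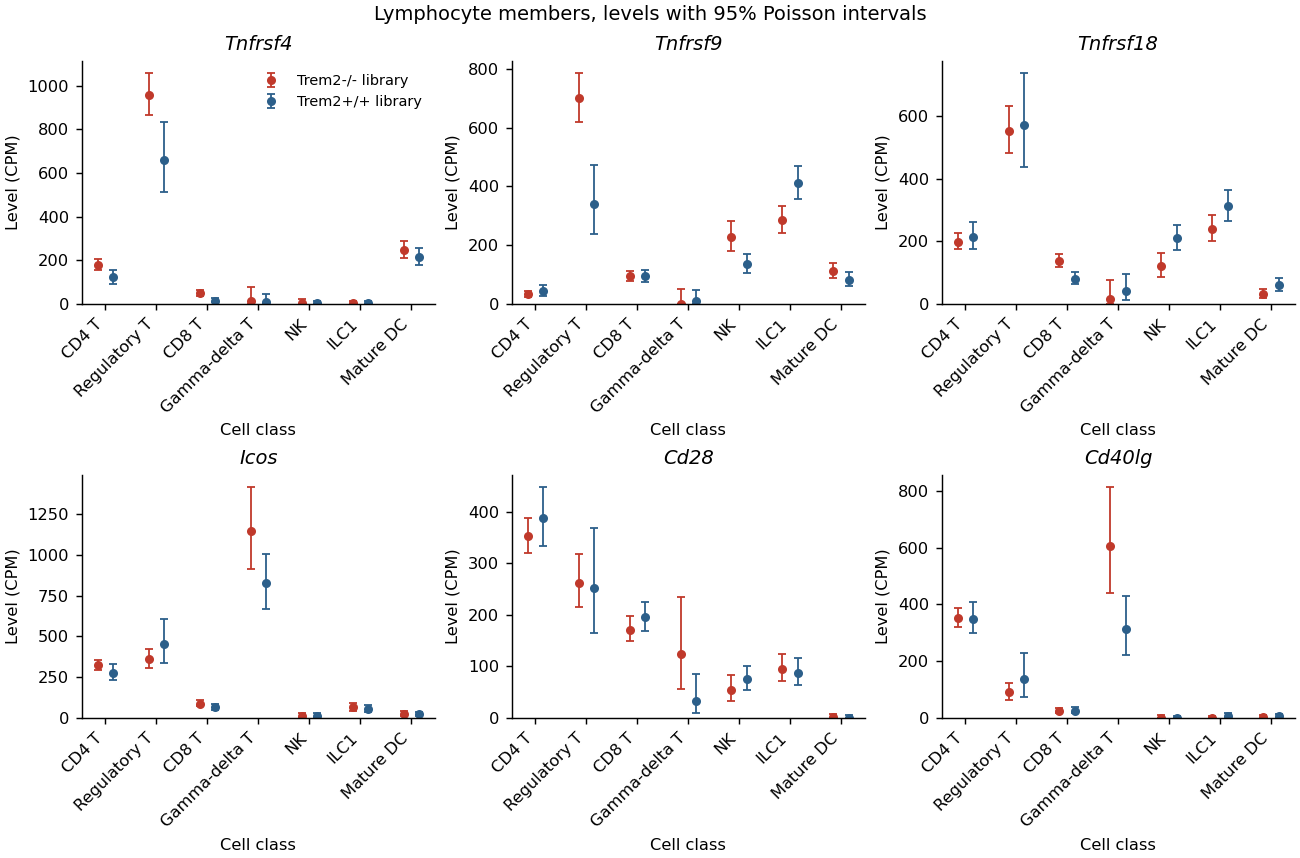
Levels in CPM with 95% Poisson intervals of the 6 lymphocyte members in 6 lymphoid classes and the mature DC-like cluster, with the Trem2-/- library in red and the Trem2+/+ library in blue. Tnfrsf4 and Tnfrsf9 in regulatory T-like cells and Cd40lg in gamma-delta T-like cells have intervals that do not overlap, and Tnfrsf9 has opposite orders in NK-like and ILC1-like cells.

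NK-like and ILC1-like cells, both innate lymphocytes without an antigen receptor, carried Tnfrsf9 and Tnfrsf18 with almost no Tnfrsf4 or Cd40lg. In NK-like cells (104 and 171) Tnfrsf9 was at 226 CPM (180 to 280.2) and 134.2 CPM (105.5 to 168.2) (log2 ratio 0.75, 0.28 to 1.22). Tnfrsf18 had the opposite order there, at 119.8 CPM (87.06 to 160.9) and 209.3 CPM (173.1 to 250.9) (log2 ratio -0.80, -1.34 to -0.29). These were 1 gene higher and 1 lower of 3 members measured, where 11.5% and 8.1% of 5553 genes were past 1.5-fold. Detection of Tnfrsf9 was closer, at 29 of 104 and 45 of 171 cells, and 18 of its UMIs were in a single cell of each library.

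In ILC1-like cells (114 and 112) both genes were lower in the Trem2-/- library without reaching 1.5-fold. Tnfrsf9, which over both libraries had more UMIs in this class than in any other named one, was at 284.9 CPM (242.5 to 332.7) and 411.1 CPM (357.9 to 470) (log2 ratio -0.53, -0.83 to -0.23). It was detected in 53.51% (43.93 to 62.9) and 48.21% (38.67 to 57.85) of cells, against 0.139% and 0.256% of B-like cells, whose median depth was 1983.5 and 1733 UMIs against 4538 and 4096. Tnfrsf18 was at 240.4 and 311.2 CPM, with -0.37 (-0.71 to -0.03). Of 4 members measured 0 were past the fold, where 18.2% of all genes were. Cd28 stood at 94.39 and 86.45 CPM and Icos at 64.11 and 55.71 CPM, both with intervals of the ratio that included 0.

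Among ratios that rest on at least 100 UMIs, Cd40 in the mature DC-like cluster had the largest of the antigen-presenting cell members. It was at 456.1 CPM (406.3 to 510.4) and 182.9 CPM (149.6 to 221.4) (log2 ratio 1.32, 0.99 to 1.65). The number of cells was alike, 87 and 85, and so was detection, in 49 and 40 cells. Cells with Cd40 held 6.20 UMIs each on average in the Trem2-/- library and 2.63 in the other. One cell held 40 of the 304 Cd40 UMIs, and without the highest cell of each library the ratio was 1.26. After thinning to 1000 UMIs, Cd40 was seen in 23.81% and 10.13% of cells. Unthinned, a Cd40 UMI was found in 0.295% and 0.287% of cells of the T cell clusters, with median depths of 3132 and 2910 UMIs against 7226 and 6679 in the mature DC-like cluster.

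Tnfsf9, the ligand of 4-1BB, was also higher in the mature DC-like cluster of the Trem2-/- library, at 160.6 CPM (131.6 to 194) against 88.83 CPM (66.14 to 116.8) (log2 ratio 0.85, 0.36 to 1.36). Tnfrsf18 was lower, at 30.01 and 59.22 CPM on 20 and 34 UMIs, with -0.98 (-1.86 to -0.14). Of 8 members measured 2 were past 1.5-fold upward and 1 downward, where 7.9% and 14.1% of 5340 genes were. Cd86 gave 0.39 (-0.13 to 0.92) and Cd80 0.16 (-0.46 to 0.80), so the ligands of CD28 did not differ beyond counting error. Tnfrsf4 was at 247.6 CPM (211.2 to 288.4) and 212.5 CPM (176.5 to 253.7) (log2 ratio 0.22, -0.13 to 0.57).

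Beside this Tnfrsf4, the 10 T cell markers summed to 51.02 CPM and 64.44 CPM in the mature DC-like cluster, against 5471 and 4524 CPM over all T cell clusters. The 9 regulatory T markers summed to 97.53 and 88.83 CPM, with 8 of 9 detected in the Trem2-/- cluster and 5 of 9 in the Trem2+/+ cluster. Gpr83 was at 0 in both, and Foxp3, Ikzf2 and Ctla4 were at 0 in the Trem2+/+ cluster only. Doublets remain in these data, and the part of T cell transcripts in the Tnfrsf4 level was not tested. Tnfrsf4 was detected together with Cd40 in 22 of 87 and 21 of 85 of these cells. Cd80 and Cd86 were detected together in 19 of 87 and 12 of 85.

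Products known to follow CD40 signalling in antigen-presenting cells were mostly higher in the same cluster. Of 8 genes of the licensing list with enough UMIs, 5 were at least 1.5-fold higher in the Trem2-/- library and 1 lower, where 7.9% and 14.1% of all genes were. Their median log2 ratio was 1.06, with -0.08 over all genes. With at least 100 UMIs in place of 20, 6 were measured, 3 higher and 1 lower, and the median was 0.48 against -0.05. Ccl17, a chemokine for CCR4-bearing T cells, was at 559.7 and 115 CPM (log2 ratio 2.28, 1.90 to 2.68). Ccl22, a second ligand of the same receptor, was at 1424 and 585.2 CPM, with 1.28 (1.10 to 1.47); it and Ccr7 are also among the markers that named the cluster.

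Il12b, a subunit of interleukins 12 and 23, was at 1337 and 726.3 CPM in the mature DC-like cluster (log2 ratio 0.88, 0.71 to 1.05). Ebi3, a subunit of interleukins 27 and 35, gave 1.35 (0.65 to 2.10) and the survival gene Bcl2l1 1.24 (0.02 to 2.62). Il15 was the lower gene, at 78.03 and 128.9 CPM, with -0.72 (-1.26 to -0.19). Markers of the 2 conventional dendritic cell lineages were present in both libraries: the 9 cDC1 markers summed to 577.7 and 461.6 CPM and the 9 cDC2 markers to 550.7 and 524.3 CPM. Their part in these differences was not tested. Among signalling adaptors, Traf1 was at 919.8 and 883.1 CPM, and 1 of 21 measured adaptors was higher and 1 lower.

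**Figure D4:**
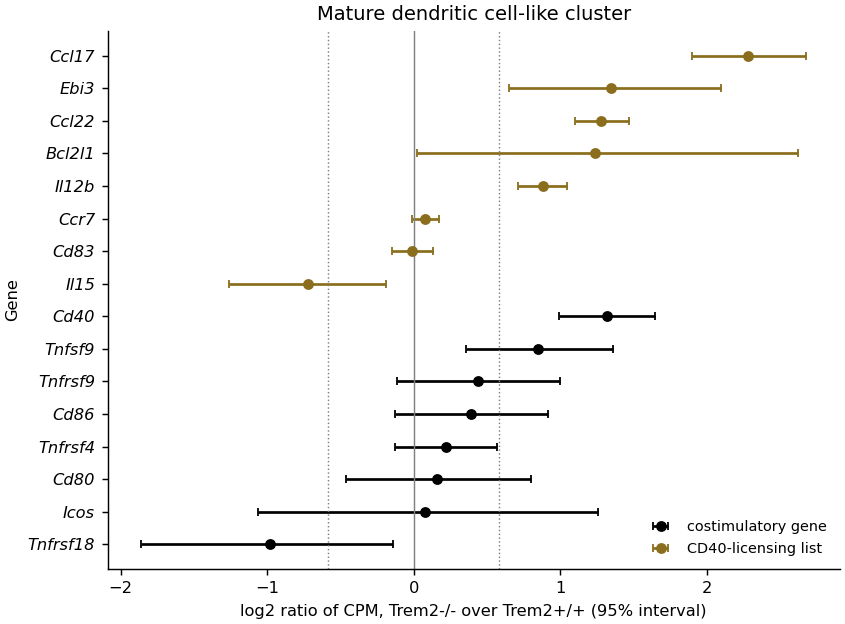
Log2 ratios of CPM (Trem2-/- over Trem2+/+) with 95% counting intervals in the mature DC-like cluster, for the costimulatory genes (black) and the CD40-licensing list (brown), with dotted lines at 1.5-fold. Cd40 (1.32) and Tnfsf9 (0.85) lie on the right with Ccl17, Ebi3, Ccl22, Bcl2l1 and Il12b, while Tnfrsf18 (-0.98) and Il15 (-0.72) lie on the left.

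Over both libraries, monocyte-like cells held more Cd80, Cd40 and Tnfsf9 UMIs than any other named class, and their differences stayed under 1.5-fold. Tnfsf9 was at 313.3 CPM (294.6 to 333) and 235.4 CPM (220.7 to 250.9) (log2 ratio 0.41, 0.28 to 0.54). Cd40 was at 93.78 CPM (83.65 to 104.8) and 65.83 CPM (58.17 to 74.21), with 0.51 (0.27 to 0.75). The Cd40 ratio came to 0.19 with all barcodes and 0.21 at the higher clustering resolution. Cd86 gave -0.10 (-0.35 to 0.14) and Cd80 0.24 (-0.21 to 0.69). Of 5 members measured 1 was past the fold, Cd28 at 2.11 and 3.45 CPM, where 10.3% of genes were. It rested on 7 and 14 UMIs, with -0.71 (-2.26 to 0.7), an interval that included 0.

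In these monocyte-like cells 5 of 12 licensing products were at least 1.5-fold higher and 2 lower. Of all genes in the class, 10.3% were past the fold in either direction. The median log2 ratio of the licensing products was 0.27, against 0.00 over all genes. With the limit raised to at least 100 UMIs, 6 were measured, 2 higher and 0 lower, and the median was again 0.27. Il6 was at 109.5 and 62.13 CPM (log2 ratio 0.82, 0.58 to 1.05), and Il23a, the other subunit of interleukin 23, at 31.36 and 8.63 CPM, with 1.86 (1.30 to 2.46). Ccl17 was at 18.09 and 3.21 CPM. In cDC1-like cells Ccl17 had the opposite order, at 16.24 and 75.13 CPM (log2 ratio -2.21, -2.79 to -1.67). The difference between these classes was not tested.

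Macrophage-like cells, which join Kupffer-like and other macrophage clusters because the line between those was not stable, had a higher Cd86 level in the Trem2-/- library. Cd86 was at 107.3 CPM (95.21 to 120.4) in 483 cells and 71.17 CPM (65.13 to 77.62) in 1314 cells (log2 ratio 0.59, 0.38 to 0.80), at the edge of the 1.5-fold size. The makeup of the class differed: cluster 8 held 56.11% and 32.88% of it, and cluster 9 held 18.84% and 35.46%. Within cluster 9 Cd86 was at 86.6 and 49.74 CPM, with 0.80 (0.39 to 1.20). The order was the same in the other clusters, but their intervals included 0: cluster 8 had 116.3 and 102.6 CPM, with 0.18 (-0.09 to 0.45), and cluster 6 had 117.5 and 64.65 CPM, with 0.86 (-0.17 to 1.85).

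Cd80 in macrophage-like cells was at 14.58 and 8.77 CPM (log2 ratio 0.73, 0.12 to 1.33). Cd80 was higher in cluster 9, at 19.52 and 6.25 CPM, with 1.64 (0.64 to 2.61), while cluster 8 had 12.15 and 12.46 CPM, with -0.04 (-0.89 to 0.78). Cd40 was at 29.15 and 24.23 CPM, with 0.27 (-0.14 to 0.66). Tnfsf9 was lower over the class, at 28.4 and 39.83 CPM, with -0.49 (-0.87 to -0.12), but not in each cluster. Cluster 9, which held 52 of its 76 and 218 of its 286 UMIs, had Tnfsf9 at 63.43 and 54.49 CPM, with 0.22 (-0.25 to 0.66), and cluster 8 had -0.60 (-1.38 to 0.14). The Tnfsf9 ratio of the class came to 0.53 with all barcodes and 0.25 at the higher clustering resolution. Of 6 members 4 were past 1.5-fold upward and 0 downward, where 8.81% and 5.84% of 10559 genes were. The other 2 were Icos at 10.84 and 2.65 CPM and Cd28 at 4.49 and 1.81 CPM, the usual genes of T cells. Beside these, the 10 T cell markers, all detected, summed to 84.46 and 34.4 CPM in macrophage-like cells, and their part in the result was not tested.

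The classical dendritic cells and B-like cells did not reach 1.5-fold for any measured member. In cDC2-like cells, where the level of Tnfsf9 was the highest of all classes, it was at 683.8 CPM (636.1 to 734.2) and 617.5 CPM (578.2 to 658.9) (log2 ratio 0.15, 0.01 to 0.29). Cd86 was highest in cDC1-like cells among named classes, at 137.3 CPM (122.1 to 153.9) and 143 CPM (126.6 to 160.9), which overlap with its mature DC-like levels of 118.5 and 90.57 CPM in the Trem2-/- library only. The counts were 0 of 5 members past the fold in cDC1-like cells, 0 of 5 in cDC2-like cells and 0 of 3 in B-like cells, where 11.5%, 15.8% and 13.3% of genes were. B-like cells carried Cd40 at 69.57 and 76.96 CPM, with -0.15 (-0.55 to 0.26), and Cd86 at 36.44 and 35.58 CPM.

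Neutrophil-like cells carried Cd80 at 51.14 CPM (38.83 to 66.11) and 40.37 CPM (30.06 to 53.08), a level exceeded among named classes by the mature DC-like cluster, at 78.03 and 69.67 CPM. Its log2 ratio was 0.34 (-0.23 to 0.91). Tnfsf9 was 1 of 3 members past the fold in neutrophil-like cells, where 16.4% of genes were, at 19.4 and 3.17 CPM on 22 and 4 UMIs. Beside it, the 10 monocyte markers summed to 2190 and 1847 CPM in this class, with Vcan at 0 in the Trem2+/+ library, and their part was not tested. An unnamed cluster led by Neat1, Oas2 and Zeb2 (cluster 20) had the highest Cd86 level of all clusters in both libraries, at 275 and 182.8 CPM, and Tnfsf9 at 333.4 and 261.1 CPM. Its Cd80 was at 87.61 and 28.72 CPM (log2 ratio 1.61, 0.60 to 2.73). Its cells were shallow, with median depths of 1268 and 1047 UMIs. Their median mitochondrial share was 5.389% and 5.941%, against 1.117% and 1.055% in monocyte-like cells. Plasmacytoid DC-like cells, 43 and 68, had Tnfsf9 at 171.7 CPM (123.8 to 232.1) and 52.31 CPM (27.85 to 89.44), with 42 UMIs in 5 cells and 13 in 7. One Trem2-/- cell held 38 of the 42 UMIs, and without the richest cell of each library the levels were 17.19 and 36.84 CPM, in the opposite order.

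**Figure D5:**
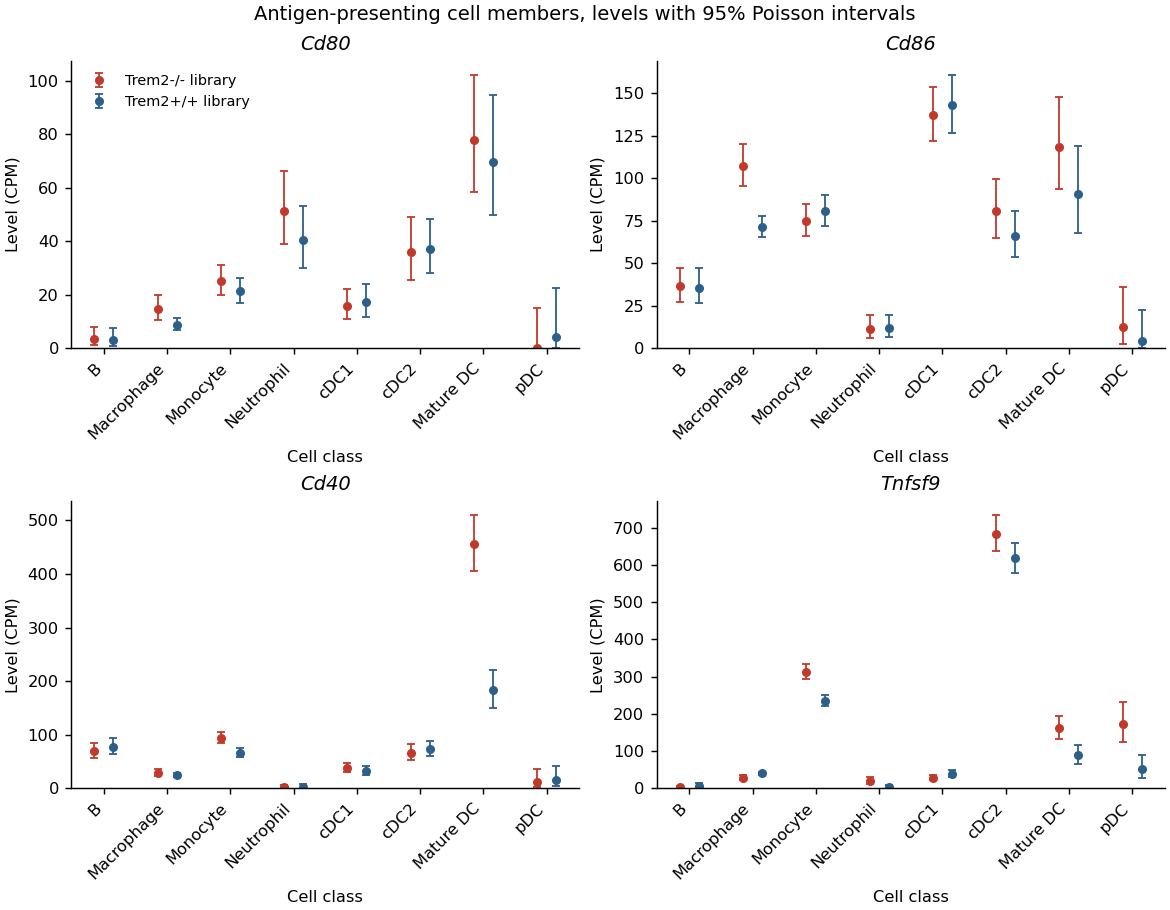
Levels in CPM with 95% Poisson intervals of Cd80, Cd86, Cd40 and Tnfsf9 in 8 classes, with the Trem2-/- library in red and the Trem2+/+ library in blue. Cd40 in the mature DC-like cluster (456.1 and 182.9 CPM) and Cd86 in macrophage-like cells (107.3 and 71.17 CPM) have separate intervals, while Cd86 in cDC1-like cells and Cd40 in B-like cells overlap.

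Endothelial-like cells held the genes at low levels, and 2 of 5 measured members were past 1.5-fold upward and 2 downward, where 6.32% and 5.03% of genes were. These were Icos at 6.91 and 2.69 CPM, Cd86 at 4.71 and 2.69 CPM, Cd40 at 5.02 and 8.61 CPM and Tnfrsf18 at 2.51 and 7.53 CPM. Each rested on 32 UMIs or fewer over both libraries. Beside these, the 10 NK markers summed to 24.8 and 61.87 CPM in this class and the 10 B cell markers to 67.82 and 212 CPM. The 10 T cell markers summed to 97.64 and 100.6 CPM and the 10 ILC1 markers to 715.8 and 689.1 CPM. The part of these markers in the result was not tested. Cd86 came to -0.30 and Cd40 to 0.30 under other settings, which reversed their order.

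Across the 12 classes with at least 50 cells per library, 62 combinations of gene and class had the 20 UMIs needed for a ratio. Of these 13 were at least 1.5-fold higher and 6 lower in the Trem2-/- library, where 8.37% and 6.93% of the 93248 combinations over all genes were, and intervals without 0 were left for 10 and 3. The 3 lower ones were all Tnfrsf18, in NK-like cells (44 and 117 UMIs), the mature DC-like cluster (20 and 34) and endothelial-like cells (8 and 14). One endothelial-like cell of the Trem2+/+ library held 5 of its 14 UMIs.

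Partners of these receptors outside the 10 genes were unevenly captured. Tnfsf4, the OX40 ligand, stayed at or under 21.13 CPM in every named class, with that level in ILC1-like cells of the Trem2+/+ library against 8.90 CPM in the other. These 2 levels rested on fewer than the 20 UMIs needed for a ratio. Tnfsf18, the GITR ligand, was at 0.161 and 0.298 CPM over all kept cells. Icosl, the ligand of ICOS, was highest in the mature DC-like cluster at 208.6 and 209 CPM, followed by B-like cells at 87.46 and 96.57 CPM and cDC2-like cells at 73.69 and 83.01 CPM. Ctla4 was at 1498 and 1319 CPM in regulatory T-like cells and at 308.8 and 192.8 CPM in CD8 T-like cells (log2 ratio 0.68, 0.42 to 0.94). Pdcd1lg2, a ligand of PD-1, was at 31.51 and 10.45 CPM in the mature DC-like cluster, on fewer than 100 UMIs over both libraries.

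Genes whose levels ran most like each member were ranked by Pearson r on log2(CPM + 1) over 24 points, 12 classes in 2 libraries, as a description: the points share libraries and depth. Cd28 was matched by Cd96 (r = 0.968), Tigit (0.966) and Ms4a4b (0.963), and Icos by Tesc (0.917) and Il7r (0.905). Cd40lg was matched by Ccr4 (0.942), the receptor for the Ccl17 and Ccl22 products above, Trav7-5 (0.926) and Neb (0.918). For Tnfrsf18 they were Unc13d (0.925), Cd226 (0.924) and Fryl (0.900), and for Tnfrsf9 H2-Q7 (0.916), Rnf43 (0.916) and H2-K1 (0.906). Tnfrsf4 had the lower values of 0.885 for Nipal1 and Itgb8 and 0.861 for Gpm6b. These 12 classes leave out the regulatory T-like cluster, where Tnfrsf4 was highest.

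Among the antigen-presenting cell members, Cd40 was matched by Ctsh (0.916), the activation marker Cd83 (0.911) and Ifi30 (0.908), an enzyme of antigen processing. Cd86 was matched by Gm6377 (0.906), Ifi30 (0.884) and Fgd2 (0.882). For Cd80 the genes were Pmaip1 (0.920), Ogfrl1 (0.908) and Mcemp1 (0.898), and for Tnfsf9 Stxbp6 (0.921), Depdc7 (0.866) and Grk3 (0.866). Ifi30 is the only gene named for 2 members.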

How the data were processed

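Per the labels' protocols, livers were dissociated enzymatically and live CD45+ cells were captured with 10x Genomics 5' chemistry. What the authors deposited are unnormalized UMI counts for each gene in each barcode; the file headers name Cell Ranger 5.0.1, and the submitters' processing notes name mm10. Gene positions come from GENCODE M21 of mm10 and promoter sequences from RefSeq.

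Barcodes under 200 genes or over 10% mitochondrial UMIs were removed. Scrublet at an expected rate of 0.06 called 4 and 2 doublets, so doublet calling had not worked and doublets remain. Clustering (scanpy 1.11.5, Python 3.11.15, igraph 0.11.9) used 2000 variable genes without the 10 members and the Trem genes, 30 principal components, 15 neighbours and Leiden resolution 1, and lymphoid clusters were clustered again. Names came from 26 marker lists. Limits on naming were set after the clusters had been seen: CD4 and CD8 names needed a Cd4 to Cd8a plus Cd8b1 UMI ratio of at least 2 or at most 0.1, NK and ILC names Cd3e in under 20% of cells, and clusters whose leading genes belonged to another class stayed unnamed. Results may differ from the study's own cell names.

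UMIs were summed per library and class. CPM carry exact Poisson intervals, shares of cells exact binomial intervals where one is given, and ratios have exact conditional binomial intervals (95%), covering counting error only. Ratios need 50 cells per library and 20 UMIs over both. The 4 mice of a pool are not replicates, so no test was made. The ratio step was run on simulated counts drawn independently for each gene, the model that the intervals assume. That run checks the calculation only, since it leaves out the gathering of UMIs in single cells. The members, 6 pathway lists and all rules were chosen with earlier results of these data known. All 10 members are named; list genes where past 1.5-fold or as partners of a member; for likeness the 3 highest r among genes with at least 100 UMIs. A gene that this rule names for Icos is not reported here.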

Additional observations from a re-analysis of the deposited data

Results flagged for a closer look

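Tnfrsf18, Tnfrsf9 and Tnfsf9 each had classes whose log2 ratios (Trem2-/- over Trem2+/+) had counting intervals on opposite sides of 0. The differences between classes were not tested, since each group is 1 library.

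Tnfrsf18 was at 0.77 (0.37 to 1.18) in CD8 T-like cells, a value that ranged from 0.10 to 0.79 over the alternatives and was past 1.5-fold in 7 of 12. It was at -0.80 (-1.34 to -0.29) in NK-like cells, -0.37 (-0.71 to -0.03) in ILC1-like cells, -0.98 (-1.86 to -0.14) in the mature DC-like cluster, on 20 and 34 UMIs, and -1.58 (-3.04 to -0.23) in endothelial-like cells, on 8 and 14 UMIs. Tnfrsf9 was at 0.75 (0.28 to 1.22) in NK-like cells and -0.53 (-0.83 to -0.23) in ILC1-like cells.

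Tnfsf9 was above 0 in the mature DC-like cluster (0.85, 0.36 to 1.36), monocyte-like cells (0.41, 0.28 to 0.54), cDC2-like cells (0.15, 0.01 to 0.29) and neutrophil-like cells (2.61, 1.06 to 4.61, on 22 and 4 UMIs). It was below 0 in cDC1-like cells (-0.52, -1.04 to -0.02) and macrophage-like cells (-0.49, -0.87 to -0.12). The macrophage value ranged from -0.78 to 0.53 over the alternatives.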

How the results depend on the processing

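No paired analysis was possible because each group is 1 library, and for the same reason no replicate could be left out. The ratios of members within classes were recomputed under up to 12 alternatives, of which leaving out the cell richest in the gene was chosen after seeing the data. Cd40 in the mature DC-like cluster ranged from 1.26 to 1.40, Tnfsf9 there from 0.73 to 1.08, Tnfrsf18 there from -1.02 to -0.64, Cd86 in macrophage-like cells from 0.51 to 0.61, and in NK-like cells Tnfrsf9 from 0.66 to 0.93 and Tnfrsf18 from -0.95 to -0.68. Tnfrsf4 in CD4 T-like cells ranged from 0.41 to 1.0, past 1.5-fold in 7 of 12 alternatives. Less stable were Tnfrsf4 (0.38 to 2.18), Tnfrsf18 (0.10 to 0.79) and Tnfrsf9 (-0.54 to 0.79) in CD8 T-like cells and Icos (0.09 to 2.44) and Tnfsf9 (-0.78 to 0.53) in macrophage-like cells. Single-gene choice of cells moved Cd28 to 0.21 and Cd40lg to 0.40 in CD4 T-like cells. Cd40 in monocyte-like cells moved to 0.19 with all barcodes and 0.21 at Leiden resolution 2. With all barcodes, levels moved to 168.7 CPM for Tnfrsf18 in CD4 T-like cells (Trem2+/+), 124.5 and 81.99 CPM for Cd86 in macrophage-like cells and 88.19 CPM for Cd40 in monocyte-like cells (Trem2+/+). In endothelial-like cells Cd86 reversed to -0.30 at resolution 2, and Cd40 to 0.07 with cells and 0.30 with clusters weighted equally. With clusters weighted as in the Trem2+/+ library, the all-cell ratios moved to 0.63 for Tnfrsf4, 0.09 for Tnfrsf9, -0.01 for Tnfrsf18 (reversed), 0.49 for Icos, 0.05 for Cd28, 0.14 for Cd40lg, 0.22 for Cd86 and 0.26 for Tnfsf9. With at least 100 UMIs in place of 20, list genes past 1.5-fold over the 12 classes fell from 55 to 19 higher and from 51 to 14 lower, since fewer genes were measured. At 20 UMIs, 8.37% and 6.93% of the 93248 combinations over all genes were past it. That share was not taken at 100 UMIs, so these counts describe the change of limit only. Where not stated otherwise the cause was not tested.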
